A study of Homo sapiens with 8 samples.

Results

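The 10 genes described here control the passage from G1 into S phase. They are the D-type cyclins CCND1, CCND2 and CCND3, the E-type cyclin CCNE1, the kinases CDK4 and CDK6, and the inhibitors CDKN1A, CDKN1B, CDKN2A and CDKN2C, which were chosen by name out of 19962 protein-coding genes. An enhancer was assigned to a gene when it overlapped the gene body or lay within 50 kb of the start site in GRCh38, by the gene models of GENCODE 44. This rule gave 77 of the 88550 enhancers deposited for 4 human medulloblastoma cell lines. MB002 had 21 of these among its 26072 enhancers, D425 had 21 among 26317, HD-MB03 had 19 among 15286 and UW228 had 16 among 20875, and no enhancer was assigned to more than 1 of the 10 genes.

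The study mapped H3K27Ac, a histone mark of active enhancers and promoters, by ChIP-seq in these established lines. MB002, D425 and HD-MB03 carry the label of the Group 3 subtype (G3-MB), and UW228 that of the SHH subtype. MB002 and HD-MB03 were grown in a stem cell medium with growth factors, and D425 and UW228 in DMEM with 10% serum, and no treatment is named for any line. A single H3K27Ac library and a single input library were made for every line, and the depth of these libraries is unknown. There is therefore no spread between replicates, and every difference below describes single libraries. An exact permutation test of 1 line against 3 has 4 orderings and cannot go below p = 0.25, so none was run. The deposited table of UW228 was made later, under another path, than those of the G3-MB lines, so subtype and processing cannot be told apart. In bulk chromatin, fewer cells with the mark and less of the mark per cell cannot be told apart either.

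Nearby H3K27Ac peaks had been stitched into enhancers and ranked by ROSE. The signal of an enhancer is its H3K27Ac value minus its input value, floored at 0, as reads per base pair after scaling for library size, times the enhancer's length. Rank 1 is the enhancer with the most signal, a super-enhancer (SE) is one that the authors called as such, and the others are typical enhancers (TEs). The share of a gene is the summed signal of its enhancers as a part of all enhancer signal of the line, in ppm. Because long enhancers hold more signal, the genes described here are ordered within a line by mean signal per base pair. That mean is not divided by the line's total, so between lines it is on another scale than the share. Where shares are set beside those of other genes, they are not corrected for covered length. By the authors' methods, peaks within 2.5 kb of a promoter were left out, so a gene with no enhancer here may still carry the mark at its promoter. The filter was not complete in the tables, since 269 enhancers of MB002, 306 of D425, 231 of HD-MB03 and 173 of UW228 lay wholly within that distance of a start site.

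Enhancers at marker genes set UW228 apart from the lines labelled Group 3, while the SHH markers were mixed in UW228. Of 7 Group 3 markers, OTX2, CRX, NRL and GABRA5 were at 0 in UW228, of which GABRA5 was also at 0 in D425 and HD-MB03. The summed share of the 7 was 486 ppm in UW228 against 16407 ppm in MB002, 7016 ppm in D425 and 6170 ppm in HD-MB03, with OTX2 holding the largest part of the sum in each G3-MB line. Of the same list NPR3 had enhancers in UW228 only, at 247 ppm, and MYC had 232 ppm in UW228 against 3592 ppm in MB002, 2648 ppm in D425 and 74.8 ppm in HD-MB03. The relative input density of the best MYC enhancer, the input per base pair over that of the median enhancer of the line, was 23.8 for MB002, 62.8 for D425, 153 for HD-MB03 and 0.998 for UW228, so the input subtracted there differed widely between lines. Of 7 SHH markers, ATOH1 was at 0 in all 4 lines, and in UW228 GLI1 was at 13.7 ppm, PTCH1 at 8.39 ppm, HHIP at 2.44 ppm, GLI2 at 25.1 ppm, SFRP1 at 75.2 ppm and PDLIM3, the largest part of the sum, at 107 ppm. SFRP1 was at 0 in all 3 G3-MB lines, and PDLIM3 had 89.1 ppm in MB002, 33.6 ppm in D425 and 913 ppm in HD-MB03, while GLI1 and PTCH1 were lower in UW228 than in each G3-MB line. The SHH markers summed to 232 ppm in UW228 and to 604 ppm in MB002, 538 ppm in D425 and 2991 ppm in HD-MB03, so the line labelled SHH had the lowest sum. Of 7 mesenchymal markers, COL1A2, COL3A1, COL6A3 and TWIST1 were at least 2-fold higher in UW228 than in each G3-MB line, COL1A1 and THY1 were not, and LOX was at 0 there. COL1A2 made up the largest part of the sum in UW228 at 737 ppm, and the list summed to 2141 ppm in UW228 against 678 ppm in MB002, 242 ppm in D425 and 981 ppm in HD-MB03. UW228 is therefore called by its name below, and the part of these marker differences in the results was not tested.

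D-type cyclins bind CDK4 and CDK6 when growth signals arrive, and these kinases phosphorylate the RB protein, which then releases E2F factors. Cyclin E and CDK2 complete the phosphorylation of RB, and E2F factors switch on the genes of DNA replication. Inhibitors of the INK4 group, such as p16INK4A from CDKN2A and p18INK4C from CDKN2C, bind CDK4 and CDK6 alone, while p21 from CDKN1A and p27 from CDKN1B act on cyclin-bound kinases. In the cerebellum the granule cell precursors from which some medulloblastomas arise divide under cyclin D and leave the cycle as p27 and p18INK4C accumulate, and CDK6 is a known target of amplification in medulloblastoma.

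The sequences below lie in the enhancers that the results describe most closely. They are promoter stretches of CDK4 and of the 4 genes with an SE, each covered by an enhancer in at least 1 line, and a peak in an intron of CDK6 that lay inside an enhancer in all 4 lines. The promoters come from RefSeq on GRCh38.p14 and the intron peak from the GRCh38 genome. The promoters are written 5' to 3' in the direction of the gene, and hold the longest run of the 250 bases before the start that no annotated exon covers. The table of RefSeq promoters used here held 14 promoters of 8 of the 10 genes, and CCND1 and CCND2 were not in it. Capitals mark the E-box CACGTG or the GC box GGGCGG, on either strand.
CDK4 (chr12:57752448-57752560, minus strand): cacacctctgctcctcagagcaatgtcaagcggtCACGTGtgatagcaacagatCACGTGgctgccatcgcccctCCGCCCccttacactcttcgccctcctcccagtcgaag
CDK6 (chr7:92836574-92836823, minus strand): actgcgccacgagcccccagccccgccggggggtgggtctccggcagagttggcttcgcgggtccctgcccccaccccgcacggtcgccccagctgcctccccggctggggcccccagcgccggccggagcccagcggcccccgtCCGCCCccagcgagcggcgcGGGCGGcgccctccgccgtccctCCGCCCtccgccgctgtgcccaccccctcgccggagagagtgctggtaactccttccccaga
CDK6 intron peak (chr7:92768703-92768980, plus strand): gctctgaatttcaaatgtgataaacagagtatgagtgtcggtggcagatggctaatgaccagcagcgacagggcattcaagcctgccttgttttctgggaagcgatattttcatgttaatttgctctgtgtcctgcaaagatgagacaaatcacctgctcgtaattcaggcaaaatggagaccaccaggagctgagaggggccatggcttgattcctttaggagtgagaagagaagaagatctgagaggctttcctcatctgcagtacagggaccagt
CDKN1B (chr12:12717118-12717367, plus strand): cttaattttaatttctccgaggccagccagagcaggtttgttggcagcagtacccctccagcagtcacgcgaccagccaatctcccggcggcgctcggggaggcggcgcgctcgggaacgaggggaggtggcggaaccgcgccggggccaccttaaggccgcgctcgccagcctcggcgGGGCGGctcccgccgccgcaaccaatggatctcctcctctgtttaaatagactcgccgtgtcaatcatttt
CDKN2A, p16INK4A start (chr9:21974867-21975107, minus strand): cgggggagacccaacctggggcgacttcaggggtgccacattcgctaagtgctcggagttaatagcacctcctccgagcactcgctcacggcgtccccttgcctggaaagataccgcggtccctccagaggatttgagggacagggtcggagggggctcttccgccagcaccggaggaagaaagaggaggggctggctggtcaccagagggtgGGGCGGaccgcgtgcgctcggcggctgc
CDKN2A, p14ARF start (chr9:21995325-21995481, minus strand): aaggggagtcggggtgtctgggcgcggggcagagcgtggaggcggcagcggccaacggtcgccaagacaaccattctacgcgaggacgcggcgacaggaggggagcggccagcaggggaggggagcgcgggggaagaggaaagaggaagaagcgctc
CDKN2C (chr1:50969995-50970244, plus strand): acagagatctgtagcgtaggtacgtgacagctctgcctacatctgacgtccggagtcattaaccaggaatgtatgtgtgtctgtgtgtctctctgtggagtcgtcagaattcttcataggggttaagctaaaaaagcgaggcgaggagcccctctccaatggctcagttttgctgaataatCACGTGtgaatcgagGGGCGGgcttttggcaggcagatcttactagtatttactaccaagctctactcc
Of 14 promoters of these genes, the 250 bases before the start held a GC box in 10, covering all 8 genes, and an E-box in 3, which belonged to CDK4 and CDKN2C. Over 35116 RefSeq promoters of that length, 42.6% held a GC box and 6.34% an E-box. The window of CDK4 held 3 E-boxes and 3 GC boxes, of which 2 and 1 fall in the stretch shown. None of the 14 windows held the E2F letters TTTNNCGC, the AP-1 letters TGANTCA, the CRE letters TGACGTCA or the OTX and CRX core TAATCC on either strand, which were found in 5.92%, 6.57%, 1.65% and 5.62% of all promoters. The CDK6 intron peak of 278 bases held none of the 6 motifs. Among 12607 windows of that length centred on the single-peak enhancers of MB002, 2.34% held the E2F letters, 4.07% the E-box, 8.66% the GC box, 9.23% the AP-1 letters, 0.167% the CRE letters and 20.3% the OTX and CRX core. These are matches of letters and were not tested for binding.

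Across the 10 genes, UW228 had enhancers at fewer genes than the G3-MB lines but SEs at more. MB002 had at least 1 enhancer at 9 of the 10 genes, D425 at 9, HD-MB03 at 8 and UW228 at 6, beside 70.9%, 73.1%, 58.4% and 62.0% of all protein-coding genes. MB002 had an SE at 1 of the 10 genes, D425 at 0, HD-MB03 at 2 and UW228 at 4, beside 3.36%, 4.35%, 3.12% and 5.00% of all genes. The 4 genes with an SE in UW228 were CDK6, CDKN1B, CDKN2A and CDKN2C, and the SEs of MB002 and HD-MB03 belonged to genes among these 4. The cyclins, CDK4 and CDKN1A had TEs only. Neither contrast held under every alternative. When enhancers had to overlap the gene body, each of the 4 lines had an enhancer at 6 genes. UW228 had 753 SEs in all, while MB002 had 363, D425 had 431 and HD-MB03 had 302, and with an equal number of SEs per line it tied with HD-MB03, at 2 genes each for the 200 highest ranked enhancers and 4 genes each for the 500 highest.

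**Figure D1:**
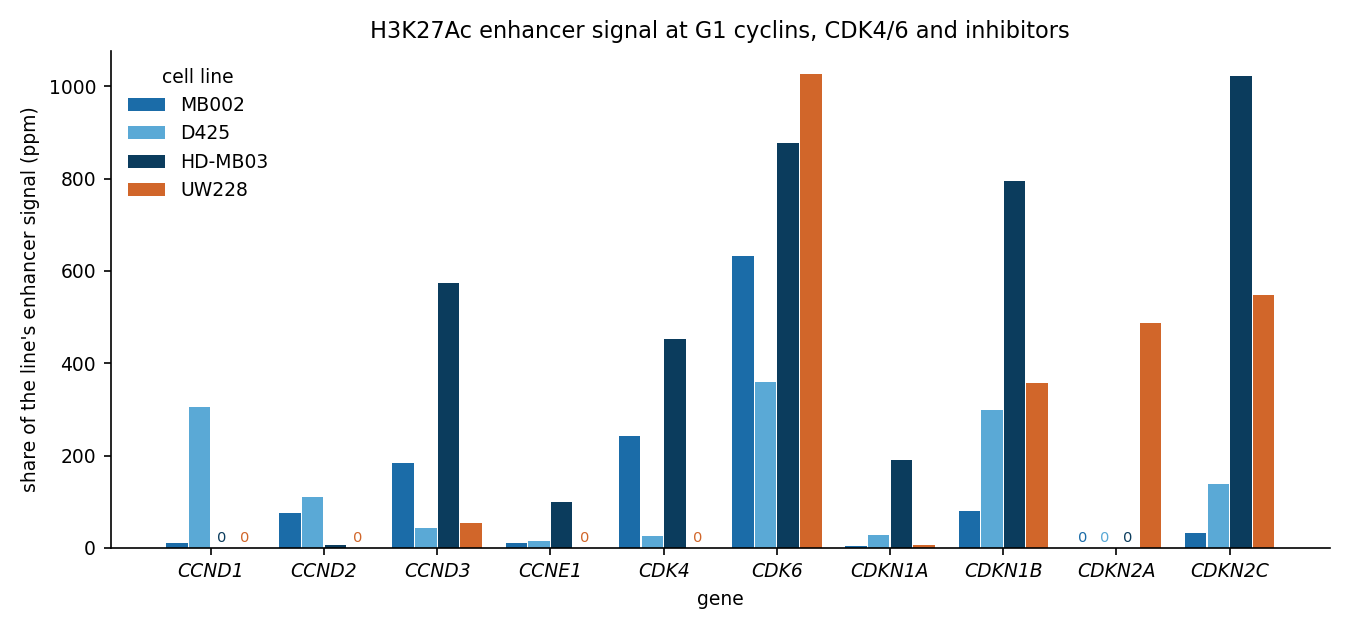
Bars give the share of each line's enhancer signal at each gene in ppm, 1 bar per line, and 0 stands for no enhancer. CDK6 has signal in all 4 lines, CDKN2A in UW228 only, and CCND1, CCND2, CCNE1 and CDK4 have none in UW228.

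A gene was counted as higher or lower in UW228 when its share differed at least 2-fold in the same direction from each of the 3 G3-MB lines. CDKN2A was higher, 1 of 10 genes beside 15.3% of all genes, and CCND2, CCNE1 and CDK4 were lower, 3 of 10 beside 20.2% of all genes. Both counts were near those over all genes. In all 4 cases the low side was at 0, so no fold is given. The same held for 717 of the 3051 genes higher in UW228 and 2237 of the 4027 lower ones among all genes. The other 6 genes had no such difference, since UW228 lay between the G3-MB lines or close to 1 of them. Leaving out HD-MB03 added CDKN2C to the higher genes and CCND1 to the lower ones, leaving out MB002 added CDKN1A to the lower ones, and leaving out D425 added CCND3 to the lower ones. When only enhancers that overlap the gene body were used, none of the 3 genes stayed lower. For CDK4 this came from D425, whose only enhancer lies outside the gene, while enhancers over the gene held 95.8% of the CDK4 signal in MB002 and 84.9% in HD-MB03. CCND2 kept no enhancer in HD-MB03, and CCNE1 had none over its body in any line. Among the 10000 highest ranked enhancers of each line only CDK4 stayed lower, since the CCND2 enhancer of HD-MB03 and the CCNE1 enhancers of MB002 and D425 ranked below that limit. The higher ranked enhancers of these genes in the other G3-MB lines remained. A window of 25 kb around the start sites left out CCNE1, and a window of 100 kb added CCND3 to the lower genes.

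The median share of the 10 genes was 53.7 ppm in MB002, 76.9 ppm in D425, 321 ppm in HD-MB03 and 30.3 ppm in UW228, beside 13.1 ppm, 17.7 ppm, 7.79 ppm and 7.38 ppm over all protein-coding genes. These medians are not corrected for covered length, and whether the 10 genes differ from all genes per base pair was not tested. The 4 inhibitors together held 116 ppm in MB002, 466 ppm in D425, 2008 ppm in HD-MB03 and 1398 ppm in UW228. Their enhancers covered 31.0 kb, 62.3 kb, 71.6 kb and 144 kb in these lines, with a mean signal of 0.355, 0.596, 1.37 and 1.02 per base pair. The 6 cyclins and kinases held 1153 ppm, 860.3 ppm, 2007 ppm and 1079 ppm. Their enhancers covered 97.1 kb, 111 kb, 119 kb and 142 kb, with 1.13, 0.619, 0.821 and 0.799 per base pair. In MB002 and, by a small margin, in D425 the cyclins and kinases thus had the denser signal, while in HD-MB03 and UW228 the inhibitors did. In UW228 this rests on CDKN2C, at 2.80 per base pair, since CDKN2A had 0.839, CDKN1B 0.618 and CDKN1A 0.352.

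By mean signal per base pair of enhancer, gaps between stitched peaks included, CDKN2C led the 10 genes in 3 of the 4 lines. In UW228 it had 2.80 per base pair, followed by CCND3 at 0.911, CDKN2A at 0.839, CDK6 at 0.794, CDKN1B at 0.618 and CDKN1A at 0.352. In HD-MB03 it had 2.25, followed by CDK4 at 1.58 and CDKN1B at 1.15, and in D425 it had 1.88, followed by CCND2 at 1.43 and CDK4 at 1.33. In MB002, CDK4 at 1.64 and CDK6 at 1.59 came first and CDKN2C had 0.675. Over all enhancers, the median was 0.533 per base pair for MB002, 0.515 for D425, 0.508 for HD-MB03 and 0.648 for UW228, so CDKN1B and CDKN1A lay below it in UW228. For CDKN1B this mean includes a TE of 12.2 kb at 0.0625 per base pair, and its SE alone had 0.762, above 61.8% of the enhancers of UW228. The part of an enhancer that peaks cover differed between genes. In UW228 it was 17290 of 20137 bp for the CDKN2C SE and 34386 of 99245 bp for the CDK6 SE of rank 131. The order of the genes per base pair of peak was not tested.

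**Figure D2:**
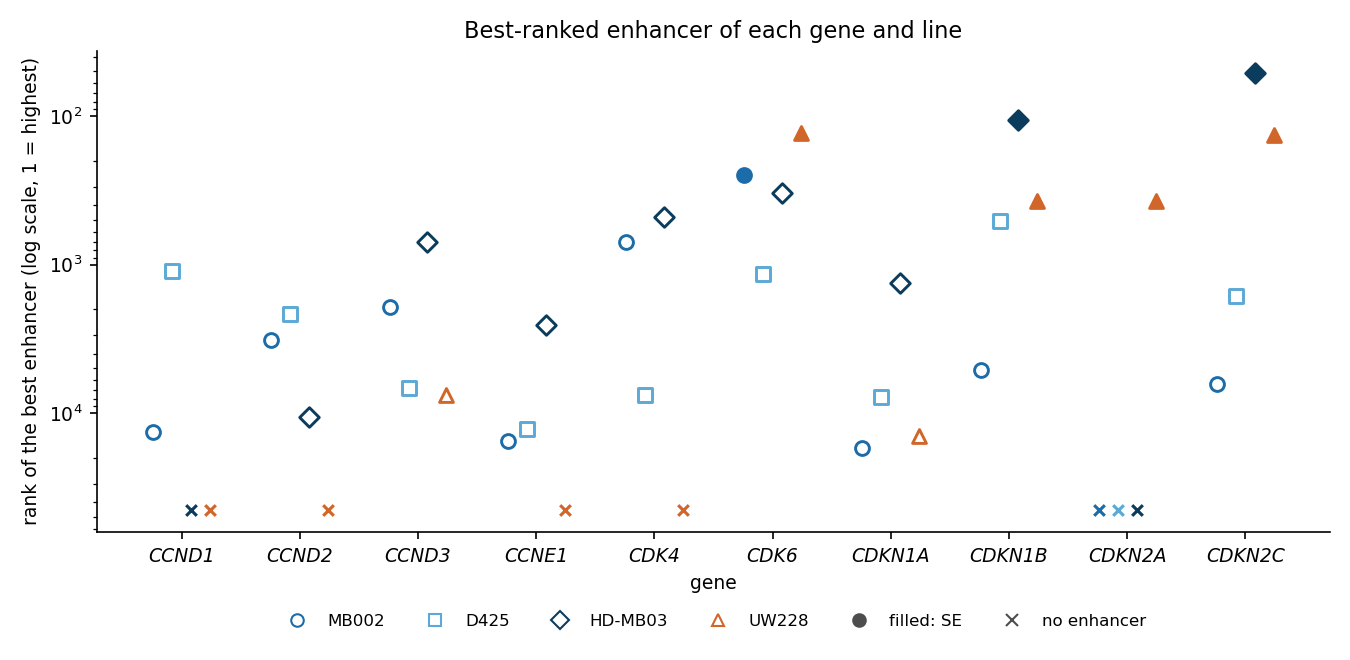
Points give the rank of the highest ranked enhancer of each gene in each line on a log scale with rank 1 at the top, filled where it is an SE, and crosses mark genes with no enhancer. The SEs lie at CDK6, CDKN1B, CDKN2A and CDKN2C, with ranks from 51 to 376.

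Among the D-type cyclins, CCND1 and CCND2 had their highest share in D425 and CCND3 in HD-MB03, and UW228 kept enhancers at CCND3 only. CCND1, which encodes cyclin D1, had a share of 9.51 ppm in MB002, 305 ppm in D425, and 0 in HD-MB03 and UW228. Its 3 enhancers in D425 covered 36.1 kb at 0.675 per base pair, and its 2 in MB002 covered 2.27 kb at 0.398. CCND1 was thus in large part a D425 gene in these data. In D425 an enhancer at chr11:69636760-69644885 covered the start site of CCND1 with rank 2109 and 111 ppm. A larger one at chr11:69686556-69709999 began 45.4 kb downstream of the start, had rank 1097 and 184 ppm, and contained the start of the neighbouring gene FGF19. In HD-MB03 the nearest enhancers on either side of the CCND1 start lay 1244 kb and 2299 kb away, and in UW228 144 kb and 375 kb away.

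CCND2, which encodes cyclin D2, had 75.6 ppm in MB002, 110 ppm in D425, 6.998 ppm in HD-MB03 and 0 in UW228. MB002 and D425 shared an enhancer past the end of the gene, at chr12:4306951-4313435 in MB002 and chr12:4307682-4313621 in D425, with 97.3% and 98.6% of the gene's signal. This enhancer contained the start of TIGAR, the next gene downstream, so its signal could belong to either gene. The only enhancer of HD-MB03 was 404 bp long, ended 52 bp before the GENCODE start of CCND2 and had rank 10699. The RefSeq start of CCND2 lies 3991 bp further downstream. The mean signal was 1.05 per base pair over 6.81 kb in MB002, 1.43 over 6.17 kb in D425 and 0.843 over 0.404 kb in HD-MB03, so within 50 kb HD-MB03 differed more in covered length than in density. This order rests on the enhancer at TIGAR. Within 25 kb of the start CCND2 had 2.06 ppm in MB002, 1.54 ppm in D425, 6.998 ppm in HD-MB03 and 0 in UW228, with HD-MB03 the highest. The nearest enhancers of UW228 lay 1099 kb and 1808 kb from the CCND2 start.

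CCND3, which encodes cyclin D3, had enhancers in all 4 lines, with 184 ppm in MB002, 43.4 ppm in D425, 573 ppm in HD-MB03 and 53.7 ppm in UW228. These came from 4, 3, 3 and 4 enhancers that covered 24.2 kb, 13.9 kb, 29.9 kb and 6.19 kb, at 0.723, 0.248, 0.931 and 0.911 per base pair. HD-MB03 and UW228 differed 10.7-fold in share but only 1.02-fold per base pair, which is not scaled to the line's total. The low share of UW228 went with a short covered length and with a larger total enhancer signal. That total was 1.05e+08 in UW228 and 4.87e+07 in HD-MB03. The low mean of D425 came from a stitched TE of 11.5 kb at 0.0644 per base pair, of which peaks cover 939 bp, while its best CCND3 enhancer had 1.21 per base pair, above 91.8% of the enhancers of the line. In HD-MB03 the best enhancer began 3.99 kb inside the gene, at chr6:42025605-42046365, with rank 709, and the best in MB002 lay at the other end of the gene, 109 kb from the start, with rank 1929. UW228 had its best enhancer, of rank 7532, at chr6:41965916-41968575 within the gene, with the highest relative input density of all 77 enhancers, 2.87. No line had an enhancer over the GENCODE start of CCND3.

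CCNE1, which encodes cyclin E1, had TEs in the G3-MB lines only. It had 9.40 ppm in MB002, 15.1 ppm in D425, 98.5 ppm in HD-MB03 and 0 in UW228, and the mean signal was 0.0729 per base pair over 12.2 kb, 0.0589 over 20.5 kb and 0.304 over 15.8 kb in the G3-MB lines. None of these enhancers overlapped the gene. The 3 G3-MB lines shared 10562 bp of enhancer downstream of it, at chr19:29845222-29855821 in MB002, chr19:29845260-29855859 in D425 and chr19:29840241-29856007 in HD-MB03. The best enhancer ranked 15459 for MB002, 12729 for D425 and 2544 for HD-MB03, so CCNE1 had no SE. The order of the lines depends on the window, since within 25 kb of the start CCNE1 had 6.16 ppm in MB002, 5.40 ppm in D425 and 0 in HD-MB03 and UW228. The share in HD-MB03 was above the 67.5 ppm that was the median of genes with an enhancer in that line, while those in MB002 and D425 were below the 39.3 ppm and 44.8 ppm of theirs. Per base pair, CCNE1 lay below the median enhancer in each G3-MB line, in HD-MB03 at 0.304 against 0.508. The HD-MB03 enhancer was denser than only 17.3% of the enhancers of that line.

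The kinases split. CDK4 had enhancers in the G3-MB lines only, and CDK6 had them in all 4 lines. CDK4 had 242 ppm in MB002, 26.3 ppm in D425, 452 ppm in HD-MB03 and 0 in UW228. The mean signal was 1.64 per base pair over 13.96 kb in MB002, 1.33 over 1.58 kb in D425 and 1.58 over 13.9 kb in HD-MB03, so D425 differed from the others in length far more than in density. An enhancer covered the CDK4 start and the promoter stretch shown above in MB002, at chr12:57751082-57763352 with rank 710, and in HD-MB03, at chr12:57751220-57762703 with rank 481. In D425 a single peak of 1580 bp, at chr12:57761649-57763228, lay inside the upstream end of the MB002 enhancer. The signal of the MB002 enhancer was 0.680 of the SE cutoff of its line. The enhancers over the CDK4 start were assigned to 8 other protein-coding genes as well and contained the start of MARCHF9 in MB002 and HD-MB03, and the data do not say which gene they act on. In UW228 the nearest enhancers lay 75.5 kb and 324 kb from the CDK4 start, and within 100 kb UW228 had 55.0 ppm against 371 ppm in MB002, 175 ppm in D425 and 454 ppm in HD-MB03.

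CDK6 had 632 ppm in MB002, 360 ppm in D425, 877 ppm in HD-MB03 and 1026 ppm in UW228. By share UW228 was the highest, 1.17-fold above HD-MB03 and 2.85-fold above D425, but this order depends on the scaling. Without scaling between lines, the input-subtracted CDK6 signal was 60005 for MB002, 28682 for D425, 42659 for HD-MB03 and 107534 for UW228, which sets UW228 further apart. The median enhancer signal of these lines was 890.2, 717, 846 and 1690.0, and after division by it MB002 came slightly above UW228. Its 4 enhancers covered 135 kb at 0.794 per base pair, while those of MB002 covered 37.7 kb at 1.59, those of D425 32.5 kb at 0.882 and those of HD-MB03 58.9 kb at 0.725. The high share of UW228 thus went with length, and per base pair MB002 was 2.01-fold above UW228. By density, which is not scaled to the line totals, CDK6 in UW228 was lower than the mean of the G3-MB lines, with a log2 ratio of -0.43. The log2 ratio was 1.30 for the summed signal without scaling and 0.72 for the share.

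The highest ranked enhancers of the lines lay over different stretches of CDK6, a gene of 232 kb. In MB002 the SE lay over the start, at chr7:92830044-92849387, and reached 6.53 kb into the gene, with rank 249 and 66.4% of the gene's signal. D425 and HD-MB03 also had their best enhancer over the start, at chr7:92832700-92837426 with rank 1150 and at chr7:92832298-92837906 with rank 329. Both of these were single peaks, with 3.01 and 3.99 per base pair, denser than 99.3% and 99.1% of the enhancers of their lines. The HD-MB03 enhancer had 0.976 of the signal at the SE cutoff of that line, so it was a TE by a small margin. UW228 had no enhancer over the start of CDK6 or over the promoter stretch shown above. Since peaks near promoters were left out, whether UW228 had a narrower peak at this start was not tested. The closest enhancer of UW228 began 3.58 kb inside the gene. The 2 SEs of UW228 lay further into the gene body, at chr7:92715227-92814471 with rank 131 and at chr7:92621295-92646589 with rank 701. The first was stitched from 20 peaks over 99.2 kb and had 0.583 per base pair, less dense than the median enhancer of UW228. The other had a signal only 1.05-fold above the SE cutoff.

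**Figure D3:**
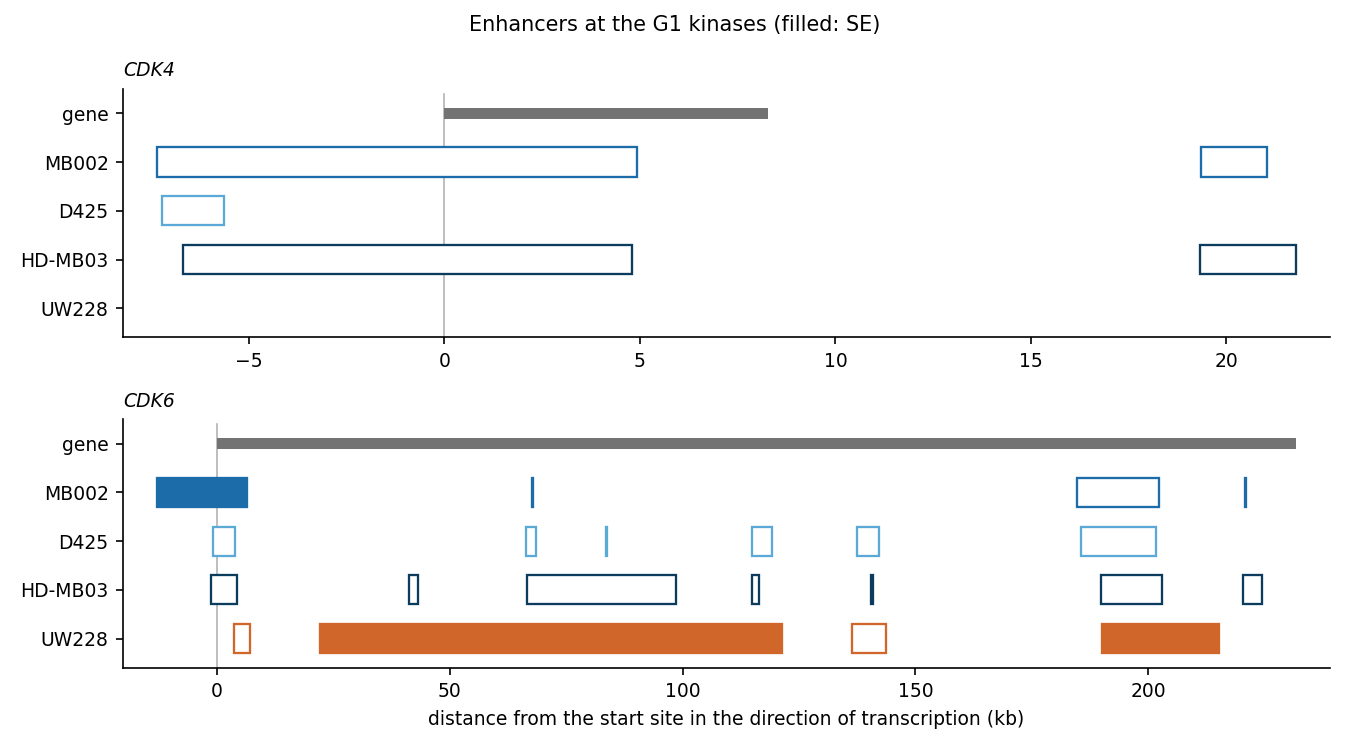
Boxes show the enhancers of each line against the distance from the start site in kb in the direction of transcription, filled for SEs, with the gene as a grey bar. At CDK6 the SE of MB002 lies over the start, and the 2 SEs of UW228 lie inside the gene body.

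Despite this, the CDK6 enhancers of the lines overlapped. Of the 4 enhancers of UW228 at CDK6, 4 overlapped an enhancer of D425 and of HD-MB03 and 3 an enhancer of MB002, and 12356 bp of the gene region lay in enhancers of all 4 lines. The stretch of the UW228 SE of rank 701 overlapped an enhancer of MB002 with rank 840, of D425 with rank 2479 and of HD-MB03 with rank 1561. The CDK6 intron peak shown above, at chr7:92768703-92768980, was a TE of rank 24187 on its own in MB002 and lay inside larger enhancers of D425 (rank 9379), HD-MB03 (rank 1921) and UW228 (the SE of rank 131). The tables do not place single peaks inside stitched enhancers, so whether D425, HD-MB03 or UW228 had a peak at this stretch was not tested.

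Of the CIP/KIP inhibitors, CDKN1A had little enhancer signal outside HD-MB03. CDKN1A, which encodes p21, had 4.32 ppm in MB002, 27.6 ppm in D425, 191 ppm in HD-MB03 and 6.85 ppm in UW228. The covered length was 0.939 kb, 10.4 kb, 15.9 kb and 2.04 kb, and the mean signal 0.436, 0.213, 0.584 and 0.352 per base pair. HD-MB03 alone had an enhancer over the CDKN1A start, at chr6:36666997-36682877 with rank 1325. Widening the window to 100 kb changed this order, since UW228 then had 358 ppm with an SE of rank 674, above 222 ppm in HD-MB03, 45.7 ppm in D425 and 4.32 ppm in MB002.

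CDKN1B, which encodes p27, had SEs in HD-MB03 and UW228 at the same place. It had 79.8 ppm in MB002, 299 ppm in D425, 794 ppm in HD-MB03 and 356 ppm in UW228. The enhancers covered 25.6 kb, 46.1 kb, 33.5 kb and 60.5 kb, with 0.296, 0.517, 1.15 and 0.618 per base pair, so HD-MB03 was the highest by share and by density. The SE of HD-MB03 lay at chr12:12713830-12746384 with rank 107, and that of UW228 at chr12:12713783-12761692 with rank 373. They began 47 bp apart and both covered the CDKN1B promoter shown above. In D425 an enhancer at chr12:12700353-12746441 covered the same promoter and had rank 507, with 0.910 of the signal at the SE cutoff of the line. In MB002 no enhancer covered that promoter, and its best one had rank 5156. The 3 lines with a strong enhancer thus had it over the RefSeq start of CDKN1B, which lies 31870 bp inside the gene span of GENCODE, and the same enhancers contained the start of APOLD1. Within 100 kb the share of CDKN1B in UW228 rose to 670.4 ppm, with 2 SEs, against 94.8 ppm in MB002, 299 ppm in D425 and 794 ppm in HD-MB03.

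The INK4 inhibitors had SEs in UW228 at both genes. CDKN2A, which encodes p16INK4A and p14ARF from separate starts, had 488 ppm in UW228 and no enhancer in MB002, D425 or HD-MB03. In UW228 an SE at chr9:21972068-22006791, with rank 376, covered both CDKN2A promoters shown above, was stitched from 7 peaks over 34.7 kb and had 1.05 per base pair, denser than 81.1% of the enhancers of the line. A TE of rank 1625 at chr9:22028183-22054456 lay 32.9 kb upstream of the start. Both CDKN2A enhancers were also assigned to CDKN2B, which encodes the INK4 protein p15 and starts 2514 bp beyond the SE. CDKN2A thus had enhancers in UW228 alone.

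Around CDKN2A the G3-MB lines differed. The nearest enhancers lay 74.6 kb and 118 kb from the CDKN2A start in MB002, with a relative input density of 1.02 and 1.00, where 1 is the median enhancer of the line. They lay 62.4 kb and 139 kb away in D425, each with an input of 0. In HD-MB03 they lay 378 kb and 1206 kb away, with a relative input density of 0.710 and 0.595. Within 1 Mb of the start MB002 had 13 enhancers, D425 had 11, HD-MB03 had 4 and UW228 had 26, with a median relative input density of 0.980, 0.816, 1.23 and 1.29. The processed values used here give input only at enhancers. They hold no input value over CDKN2A itself in the G3-MB lines, and whether the locus was present in them was not tested. Within 100 kb, CDKN2A had 1301 ppm in UW228 against 4.61 ppm in MB002, 67.3 ppm in D425 and 0 in HD-MB03, and UW228 then had 2 SEs there with a best rank of 65.

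CDKN2C, which encodes p18INK4C, had 31.7 ppm in MB002, 139 ppm in D425, 1023 ppm in HD-MB03 and 547 ppm in UW228. The enhancers covered 4.46 kb, 5.89 kb, 22.2 kb and 20.5 kb, with 0.675, 1.88, 2.25 and 2.80 per base pair. HD-MB03 and UW228 stood above the other lines in both share and density, and UW228 was above HD-MB03 in density but not in share. Without scaling to the line totals, the summed CDKN2C signal was also higher in UW228, at 57333 against 49772 in HD-MB03. The median enhancer had 0.648 per base pair in UW228 and 0.508 in HD-MB03, so the lead in density depends on the scale. HD-MB03 had an SE at chr1:50963050-50984027 with rank 51, the best rank of any of the 77 enhancers, and UW228 had an SE at chr1:50965796-50985932 with rank 134. Both CDKN2C SEs covered the promoter shown above with its E-box and GC box, and neither covered the start of FAF1, the neighbour that was assigned to the same enhancers. MB002 and D425 had an enhancer only at the end of CDKN2C, at chr1:50974056-50978512 with rank 6400 and at chr1:50973903-50979791 with rank 1627, and all of the MB002 enhancer lay inside those of the other lines. Without HD-MB03, CDKN2C was higher in UW228, 17.3-fold above MB002 and 3.93-fold above D425 in share, and 4.15-fold and 1.48-fold per base pair. The log2 ratio of UW228 to the mean of the G3-MB lines at CDKN2C was 0.46 as a share with all lines and 1.43 without scaling. It was -0.09 without MB002 and -0.07 after division by the relative input density.

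**Figure D4:**
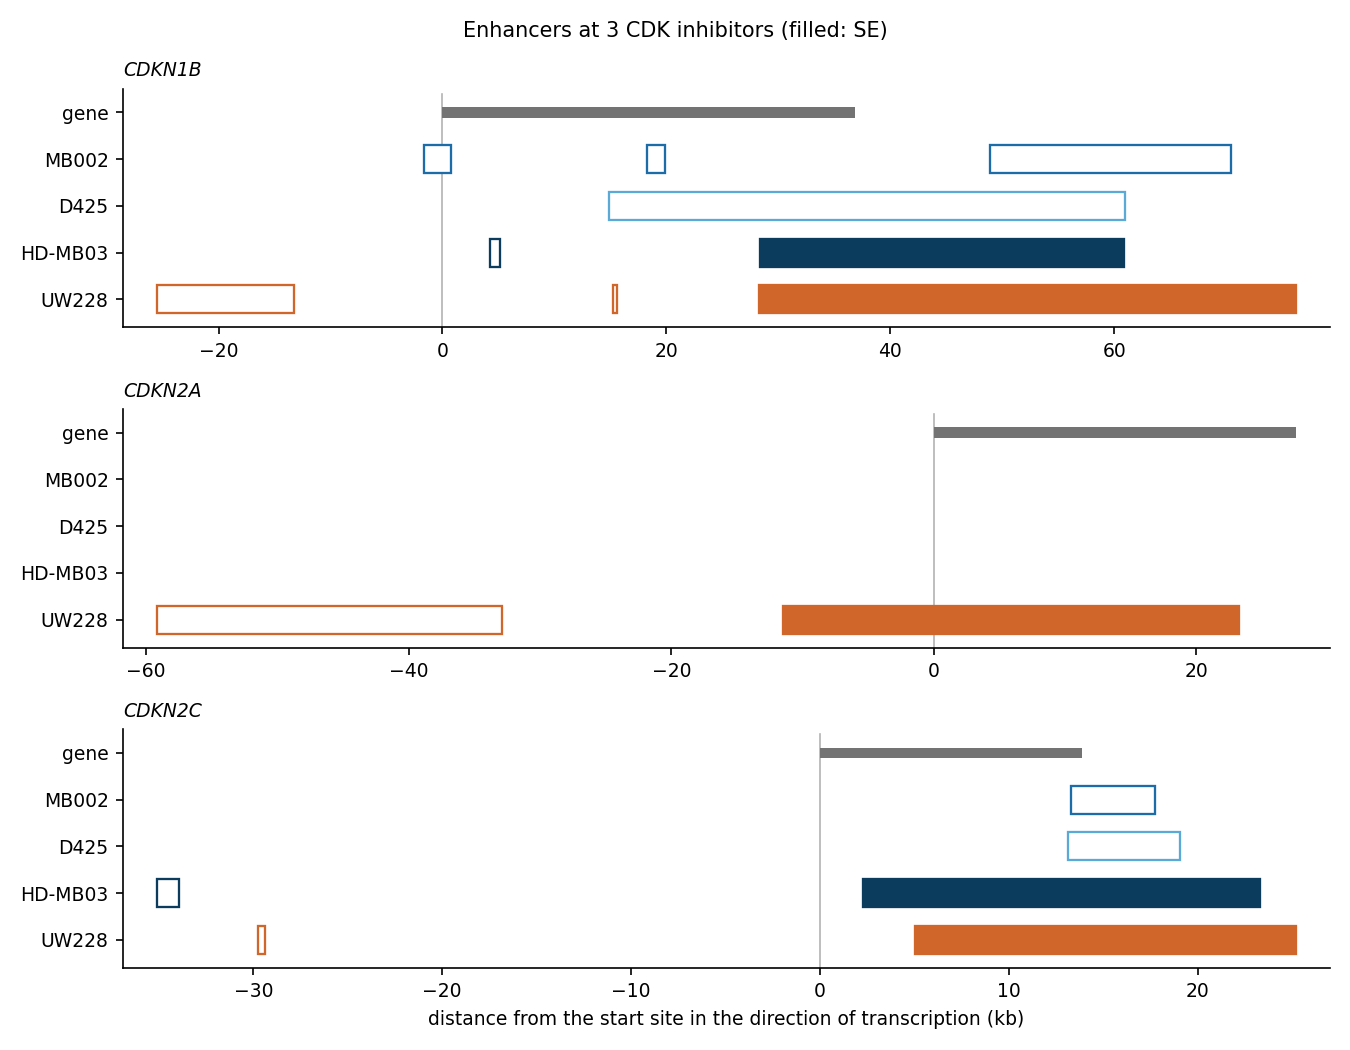
Boxes show the enhancers of each line at CDKN1B, CDKN2A and CDKN2C against the distance from the GENCODE start site in kb in the direction of transcription, filled for SEs, with the gene as a grey bar. The SEs of HD-MB03 and UW228 overlap at CDKN1B and CDKN2C, and CDKN2A has enhancers in UW228 only.

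Input differed several-fold between enhancers of these genes, and in the G3-MB lines none reached that at the marker OTX2. The relative input density of the 77 enhancers ran from 0.592 to 1.75 in MB002, from 0.194 to 2.55 in D425, from 0.887 to 2.07 in HD-MB03 and from 0.635 to 2.87 in UW228. The best enhancer of OTX2 had a relative input density of 35.2 for MB002, 53.3 for D425 and 5.84 for HD-MB03. At CDK6 the relative input density pooled over its enhancers was 1.13 for MB002, 1.64 for D425, 1.4997 for HD-MB03 and 1.33 for UW228. Dividing each enhancer by its own relative input density gave CDK6 641 ppm in MB002, 211 ppm in D425, 603 ppm in HD-MB03 and 711 ppm in UW228, so UW228 stayed the highest. For CCND3 it gave 192 ppm in MB002, 40.5 ppm in D425, 543 ppm in HD-MB03 and 26.4 ppm in UW228, which put UW228 below D425. The same division made CDK4 an SE gene in MB002 and CCND1 and CDKN1B SE genes in D425, in lines where the number of SEs then rose to 964 and 989. The copy number of these genes was not measured.

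**Figure D5:**
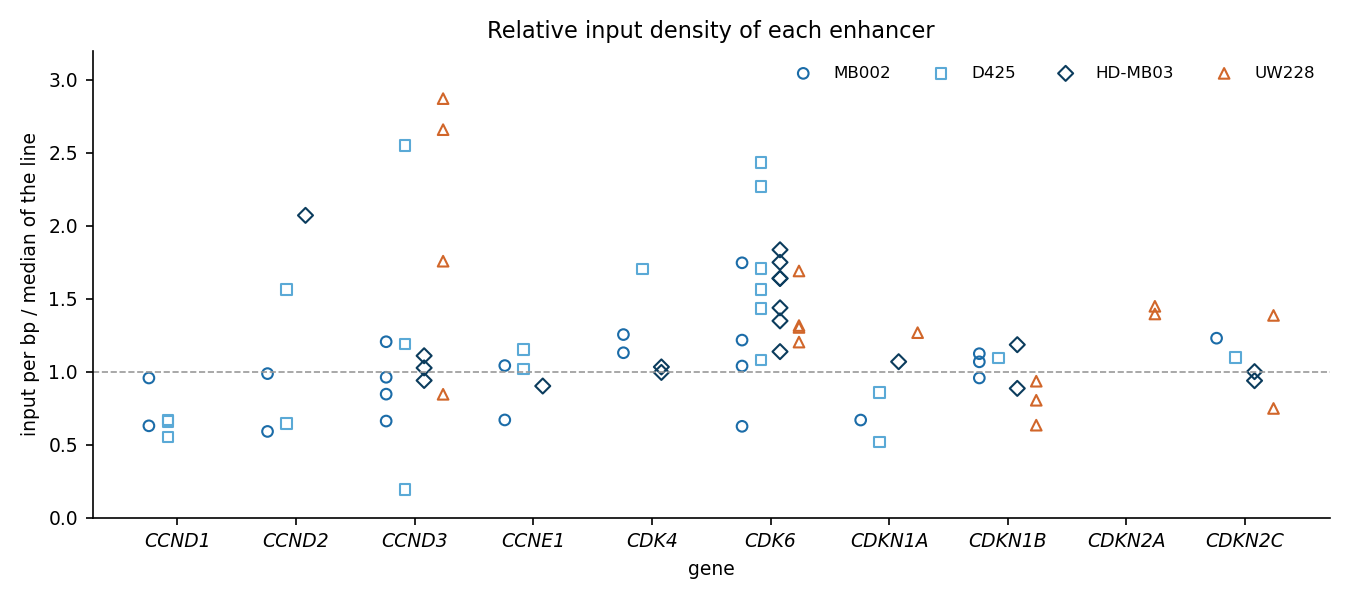
Points give the input signal per base pair of each enhancer divided by the median enhancer of its line, for each gene and line, with a dashed line at 1. All points lie between 0.194 and 2.87.

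How far UW228 shared these enhancers depended on the G3-MB line. Of the 21 enhancers of MB002 at the 10 genes, 14 overlapped an enhancer of D425 by at least 1 bp, 12 one of HD-MB03 and 6 one of UW228, or 66.7%, 57.1% and 28.6%, beside 45.0%, 35.2% and 20.3% of all enhancers of MB002. Of the 16 of UW228, 6 overlapped an enhancer of MB002, 7 one of D425 and 9 one of HD-MB03, or 37.5%, 43.8% and 56.3%, beside 24.7%, 30.0% and 18.7% of all enhancers of UW228. Of the 21 of D425, 13 overlapped an enhancer of MB002, 12 one of HD-MB03 and 8 one of UW228, or 61.9%, 57.1% and 38.1%, beside 45.4%, 29.9% and 24.4% of all enhancers of D425. Of the 19 of HD-MB03, 12 overlapped an enhancer of MB002, 11 one of D425 and 11 one of UW228, or 63.2%, 57.9% and 57.9%, beside 61.2%, 51.2% and 26.2% of all enhancers of HD-MB03. The shares of HD-MB03 enhancers found in MB002 and D425 were thus near those over all its enhancers. By length, enhancers of a G3-MB line held 100% of the UW228 enhancer at CDKN1A, 89.0% at CDKN2C, 70.3% at CDKN1B, 43.8% at CDK6, 24.9% at CCND3 and 0% at CDKN2A.

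Across 28 other genes of the same control circuit HD-MB03 had the fewest genes with an enhancer, as it did over all protein-coding genes. MB002 had at least 1 enhancer at 20 of the 28 genes, D425 at 21, HD-MB03 at 17 and UW228 at 20, and SEs at 1, 1, 3 and 3 of them, to be read beside the 70.9%, 73.1%, 58.4% and 62.0% of all genes with an enhancer and the 3.36%, 4.35%, 3.12% and 5.00% with an SE. Their median share was 7.28 ppm in MB002, 8.57 ppm in D425, 3.39 ppm in HD-MB03 and 22.5 ppm in UW228. By the 2-fold rule 8 of 28 were higher in UW228 and 6 were lower, beside the 15.3% and 20.2% of all genes given above.

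Among the pocket proteins, the substrates of CDK4 and CDK6, RB1 had 307 ppm in UW228, 7.28 ppm in D425 and 0 in MB002 and HD-MB03. RBL1 was also higher in UW228, at 17.1 ppm against 0.979 ppm in MB002 and 0 in D425 and HD-MB03, and RBL2 was lower, at 0 against 7.74 ppm in MB002, 1.06 ppm in D425 and 43.5 ppm in HD-MB03. Of the E2F factors that RB binds, E2F2 had an SE in D425 (rank 101), HD-MB03 (rank 258) and UW228 (rank 725), and E2F3 in HD-MB03 (rank 238). E2F4 (72.8 ppm), E2F7 (137 ppm) and E2F8 (85.3 ppm) were higher in UW228, and E2F6 was at 0 there. RB1 and CDKN2A, 2 brakes of the same circuit, were thus both higher in UW228 by the 2-fold rule.

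CDKN2B shared the UW228 enhancers of CDKN2A and had the same 488 ppm there, with 1.08 ppm in D425 and 0 in MB002 and HD-MB03. CDKN1C, which encodes p57, was counted as higher in UW228 at only 2.16 ppm against 0 in the G3-MB lines. CDK2, the partner of cyclin E, was lower in UW228, at 0 against 25.5 ppm in MB002, 52.4 ppm in D425 and 19.6 ppm in HD-MB03, as CCNE1 was. SKP2, which marks p27 for degradation, was lower in UW228 too, at 23.5 ppm against 158 ppm in MB002, 245 ppm in D425 and 163 ppm in HD-MB03. CKS1B, a cofactor of SKP2, had SEs in MB002 (rank 248), HD-MB03 (rank 98) and UW228 (rank 661). CCNH, a cyclin of the kinase that activates CDKs, was higher in UW228 at 132 ppm against at most 6.20 ppm, in D425. MDM2, a ubiquitin ligase, was lower in UW228, at 0 against 34.6 ppm in MB002, 131 ppm in D425 and 97.9 ppm in HD-MB03.

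The genes whose shares over the 4 lines were nearest to those of the SE genes were found from the summed absolute difference in log2(share + 1 ppm). For CDK6 these were DENND2B, MRPL24 and ZMYND8, with sums of 1.21, 1.56 and 1.74. For CDKN1B they were TMEM184B, PLXNA2 and ERCC1, with 0.95, 1.00 and 1.42. For CDKN2C they were ENSG00000288715, PLXNA2 and SSC4D, with 1.72, 2.49 and 2.67, so PLXNA2 was near both CDKN1B and CDKN2C, which share the order HD-MB03, UW228, D425 and MB002. For CDKN2A they were ENSG00000265118, EVI2A and EVI2B, each with 0.01 and with 485 ppm in UW228 only. The shares of these nearest genes were identical in every line, so they are a single pattern.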

How the data were processed

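H3K27Ac and input ChIP-seq of 4 lines was analysed, 1 library of each kind per line. Per the labels, the submitters' processing notes name Bowtie2 2.3.0, SAMtools 1.9 and MACS2 2.2.6 on GRCh38. The authors gave, per enhancer, the H3K27Ac and input signal (reads per base pair scaled to mapped reads, times length), with the input not subtracted. The deposited score of an enhancer is its ROSE rank, and further columns give its SE call (other), its number of peaks and its peak length. Library depth is unknown, so no interval from counts was given.

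Here Python 3.11.15, numpy 2.4.6, pandas 2.3.3 and matplotlib 3.10.9 were used. Input was subtracted, and genes were assigned with GENCODE 44, whose build fits the deposited coordinates. Assignment, the 2-fold rule and the SE cutoff were tested on simulated data. Alternatives changed input handling, gene assignment, SE cutoff, scaling, fold and the G3-MB lines used. Named were the 10 genes, pathway genes from among those with an SE or past the 2-fold rule, and the 3 nearest in pattern to each SE gene. The members and lists were chosen with earlier results of these data known.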

Additional observations from a re-analysis of the deposited data

How the results depend on the processing

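Of the counts of genes with an enhancer, with an SE, higher or lower in UW228 and shared, 116 values under the alternatives stayed within 1.5 times the main count and 8 did not. Many of the 116 could not move, since input handling and scaling leave the genes with an enhancer as they are, and no fold cutoff ends a call with 1 side at 0. Dividing the signal by its own relative input density gave an SE to 2 genes in MB002 and 2 in D425. With the 200 highest ranked enhancers as SEs, 0 genes in MB002 and 2 in UW228 had one, and with the 500 highest 4 did in HD-MB03. Overlap of the gene body only left 0 genes lower in UW228, and the 10000 highest ranked enhancers left 1. Leaving out 1 G3-MB line at a time gave 1 to 2 genes higher and 4 genes lower. CDKN2A was higher under every alternative run. Placing the genes by their RefSeq span and leaving enhancers with a relative input density of 5 or more out of the total were chosen after seeing the data. The RefSeq span left the counts with an enhancer, with an SE, higher and lower as they were, and the other alternative, run for the higher and lower counts, left those. Over 7191 genes with enhancers in all lines, the median log2 ratio of UW228 to the mean of the G3-MB lines was -1.02 as a share, -0.46 without scaling and -1.53 after division by the median enhancer. The 4 genes higher or lower in UW228 are at 0 on 1 side, so scaling could not end their calls. The ratio of CDKN1B turned from -0.13 as a share to 0.68 without scaling, 0.26 by own input, 0.76 within 100 kb and 0.91 without HD-MB03. That of CCND3 turned from -2.29 to 0.52 per base pair, that of CDK6 from 0.72 to -0.43 per base pair, that of CDKN1A from -3.26 to 1.97 within 100 kb, and that of CDKN2C from 0.46 to -0.07 by own input and -0.09 without MB002. The ratios per base pair were not scaled to the line totals. No paired analysis was possible because the lines share no replicates. Depth is unknown, so what it limits was not tested.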
